A study of Rattus norvegicus with 8 samples.

Results

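Rat adipose tissue-derived stem cells (ASCs) harvested at 48 h were compared with the same cells harvested at 24 h, within each strain and treatment. The 8 samples of the series form 4 pairs of arrays, LEW control, PVG control, LEW LPS and PVG LPS, with 4 samples at 24 h and 4 at 48 h, so that all 8 of 8 samples entered the comparison. The donors were Lewis (LEW) rats, a strain known for acute rejection of DA liver grafts, and Piebald Virol Glaxo (PVG) rats, a strain known for spontaneous tolerance of them, and both were 8 weeks old. The cells of 3 rats a strain were each split into 4 cultures, kept for 24 h or 48 h with PBS (control) or with lipopolysaccharide (LPS, the bacterial endotoxin sensed by TLR4) at 1 μg/ml, and the RNA of the 3 rats was pooled before it was hybridised to an Illumina RatRef-12 BeadChip. The control and the LPS pair of a strain therefore come from the same 3 rats. The p-values measure the spread among 4 pairs of pooled cultures, in part borrowed from all probes, and not the spread between rats. The methods describe plastic-adherent cells of inguinal and interscapular fat from which mature adipocytes had been spun off and which were grown in serum, and they name no medium change or passage between the times.

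ASCs are fibroblast-like cells that grow attached to plastic and divide until they crowd each other. A dividing cell copies its DNA in S phase, with nucleotides from ribonucleotide reductase and with the MCM helicase opening the helix, and then separates the copies in mitosis under the control of the kinase CDK1 and its B cyclins. Genes of these phases are switched off together in cells that leave the cycle, and they are known to be held low by the DREAM complex, which binds short promoter elements. Fibroblast-like cells also build the extracellular matrix, secrete complement proteins and break down what they take up in lysosomes.

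Each array's deposited signals were brought to the same 75th percentile, and changes are differences of their log2 values, 48 h minus 24 h, with the standard error of the fit over the 4 pairs. Of 22523 probes, 9285 were detected on at least 4 of the 8 arrays (detection p under 0.05) and were tested with limma, with the pair as a block. Before scaling, the 75th percentile was 128 to 153 at 24 h and 123 to 131 at 48 h, and 9101 to 9509 probes were detected at 24 h against 8947 to 9228 at 48 h, with fewer at 48 h in every pair but LEW LPS. The median change over the tested probes was 0.02 after scaling. The signals include the background of the array, whose median probe lay between 71.6 and 82.9 before scaling, so the changes of dim probes are understated. Chip positions and scan times were not given in the sources used here, so no batch term could be fitted. In bulk RNA, fewer cells of a kind and less RNA per cell cannot be told apart.

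At 48 h, 128 probes were higher and 256 were lower at a Benjamini-Hochberg adjusted p under 0.05, which is 1.38% and 2.76% of the probes tested. Genes of cell division fell, and genes of complement and of lysosomes were among those that rose. The falls were the deeper, since 124 probes fell by 1.5-fold or more on average and 42 by 2-fold or more, against 41 and 4 that rose as far. Of the called probes, 127 of the 128 higher and all 256 lower moved the same way in the 4 pairs. By direction alone, 1266 probes were higher in all 4 pairs and 1147 were lower in all 4, which is 13.6% and 12.4% of the probes tested. At least 1.5-fold in every pair, 62 probes were lower (0.668%) and 3 were higher (0.0323%), and at least 2-fold in every pair 16 were lower and none was higher. The 3 higher probes were those of C2, Cpxm2 and Mfap4. Of the 62 lower probes, 31 belonged to the mitosis or DNA replication lists described below, 20 to named genes outside those lists and 11 to probes without a gene symbol. The lists held 73 of the 6829 genes tested. The 20 included genes that also act in cell division, such as the spindle kinesin Kifc1, as well as Gldn, Gsta5 and Krt7.

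The counts depended on the pair block and on single pairs. Without the block, 22 probes passed, all of them lower, and a paired test without moderation passed 3. A 2-way analysis of variance by LPS and time, factors that the paper names, passed 1 for its time term. It left strain out and was run on the probes tested here, so it does not repeat the paper's own test. Leaving out the PVG LPS pair left 39 higher and 144 lower, leaving out PVG control 59 and 137, and leaving out LEW control 70 and 195. Without any scaling the split was 10 higher and 304 lower, with a median change of -0.11 over all probes, so the share of higher calls was 3.18% against 33.3% with scaling. The plot of all probes shows the asymmetry.

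**Figure D1:**
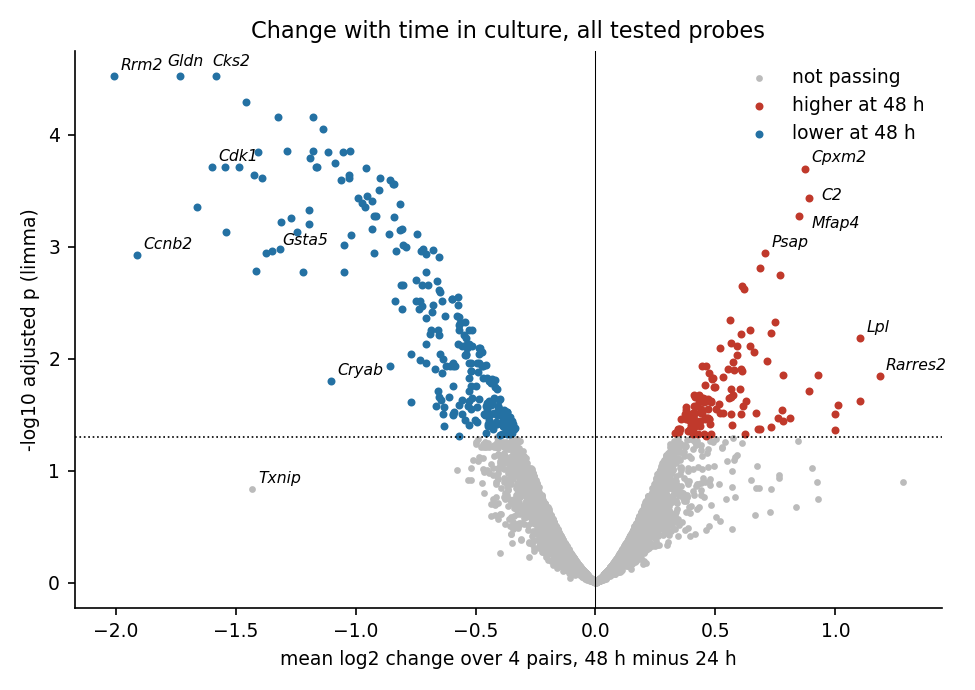
Mean log2 change over the 4 pairs (x axis, 48 h minus 24 h) against -log10 of the limma adjusted p (y axis) for the 9285 tested probes, with probes higher at 48 h in red, lower in blue and not passing in grey; the dotted line is an adjusted p of 0.05. The blue points extend to a change of -2.01 (Rrm2), the red points to 1.19 (Rarres2).

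Genes of mitosis fell as a group. Of 54 listed genes of mitosis and the spindle, 44 had a probe and 37 were tested, and 34 of these fell, none rose, and 36 were lower in all 4 pairs, with a median change of -1.05 against 0.02 over all genes tested. The other 3 were Mad2l1, Kif20b and Pimreg, with changes of -0.19, -0.33 and -0.28. The 34 calls became 30 to 34 when a pair was left out and 34 to 36 under other scalings and background corrections, but 7 without the pair block. Among probes detected on all 8 arrays, 15 of the genes were tested and all 15 fell. The remaining genes were not detected on every array, so the 24 h arrays, where signals were higher, could bring them into the test. Values of single genes below are scaled signals in the order LEW control, PVG control, LEW LPS and PVG LPS.

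Cyclin B2 (Ccnb2), which activates CDK1 at the entry into mitosis, had signals of 1021, 1484, 1250.4 and 1594 at 24 h and 512, 518, 176 and 325 at 48 h. Every 48 h value lay below every 24 h value, and the change of -1.91 ± 0.23 was a 3.76-fold fall (adjusted p = 0.0012 in limma). Its kinase partner Cdk1 had 893, 1509, 928 and 1289 at 24 h and 449.8, 453, 232 and 403 at 48 h, a change of -1.60 ± 0.14 (adjusted p = 0.000195). The times did not overlap for Cdk1 either, and the LEW control pair, which was the lowest at 24 h, changed least. Cks2, a small protein that binds CDK1, had 857, 1249.8, 737 and 912 at 24 h and 343, 405, 227 and 285 at 48 h, and its change of -1.58 ± 0.09 was among the most even over the pairs (adjusted p = 2.99e-05). Cyclin A2 (Ccna2), which serves both S phase and mitosis, changed by -1.41 ± 0.11, with signals of 248, 421, 245 and 276 at 24 h and 109, 139, 73.7 and 127 at 48 h.

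Several kinesins and other spindle proteins were among the named genes that fell. Kifc1, a minus-end directed kinesin that bundles spindle microtubules, changed by -1.29, -1.42, -2.50 and -1.44 in the 4 pairs, and LEW LPS stood below the other 3. Prc1, which bundles the microtubules between the separating chromosomes, changed by -1.54 ± 0.14, Tpx2, which activates Aurora A on the spindle, by -1.54 ± 0.17, and Kif20a, a kinesin of cytokinesis, by -1.49 ± 0.13. The plus-end kinesin Kif11, which pushes the spindle poles apart, changed by -1.32 ± 0.09, and Kif23 of the midbody by -1.13 ± 0.08. For Kif20a, Kif11, Kif23, Spag5 and Ccna2, 1 of the 4 arrays at 48 h was no longer detected above background. None of the calls of the cell division genes in this paragraph and the one before was lost when a pair was left out.

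Exit from mitosis depends on the anaphase-promoting complex, a ubiquitin ligase. Its activator Cdc20 had 516, 575, 544 and 660.0 at 24 h and 232, 323, 126 and 249 at 48 h (change -1.38 ± 0.17, adjusted p = 0.00114), and its ubiquitin-conjugating enzyme Ube2c changed by -1.29 ± 0.10. Spag5 and Knstrn, which act together at kinetochores and spindle poles, changed by -1.18 ± 0.09 and -1.42 ± 0.18. Knstrn was the most uneven of these 4 over the pairs, from -0.54 in LEW control to -1.92 in LEW LPS. Arhgap11a, a GTPase-activating protein for RhoA, was outside the list and changed by -1.43 ± 0.13, with no overlap between the times.

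**Figure D2:**
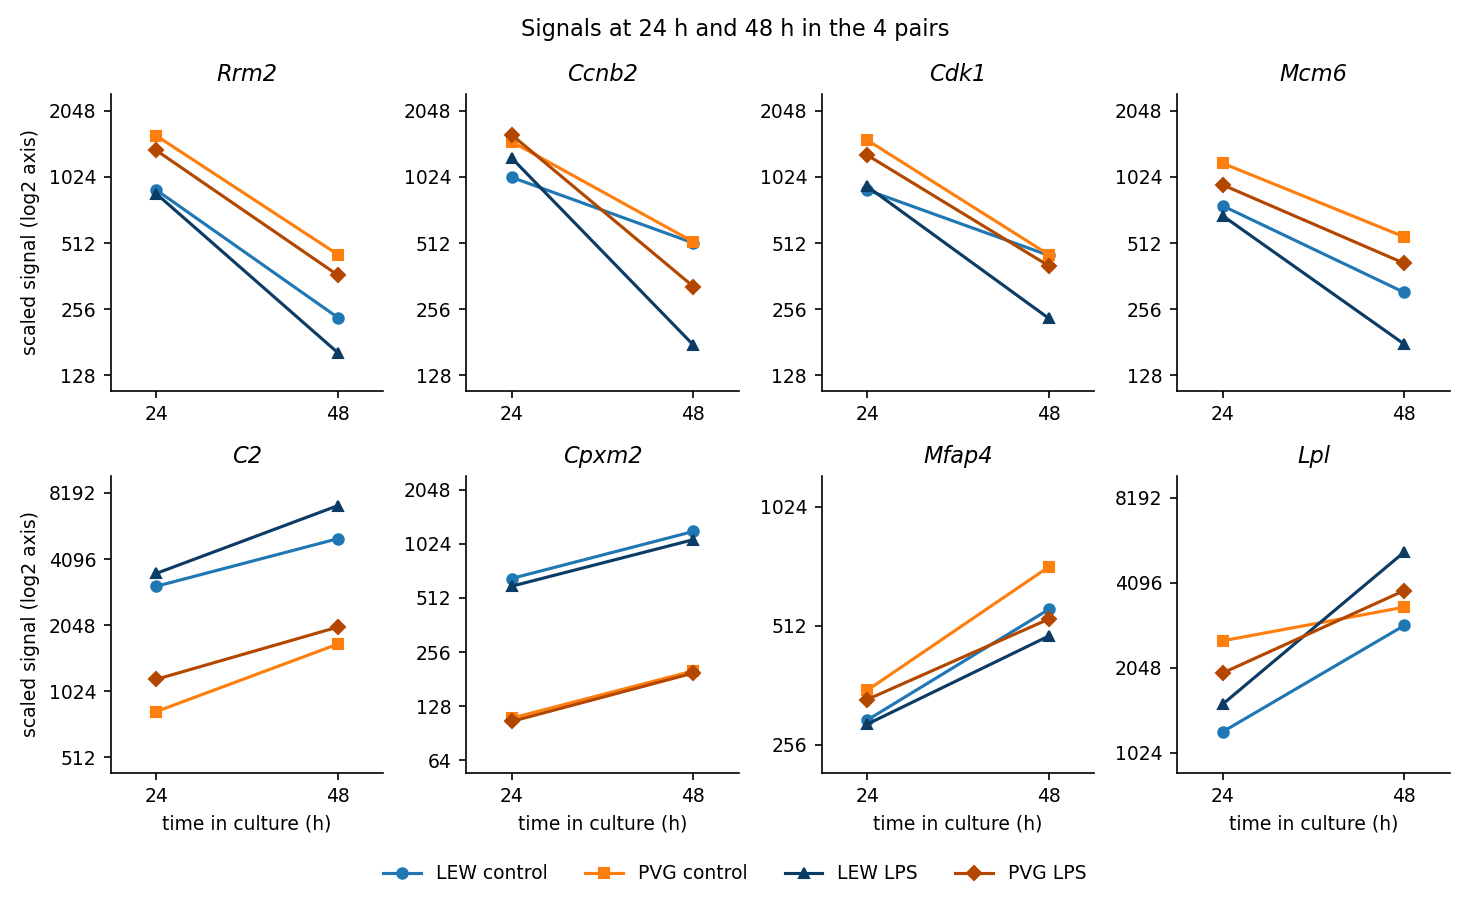
Scaled signals (log2 axis) at 24 h and 48 h (x axis) of 4 genes that fell (top) and 4 that rose (bottom), 1 line for each pair of arrays. All lines of a gene run the same way, and the times do not overlap for Rrm2, Ccnb2, Cdk1, Mcm6, Mfap4 and Lpl.

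Genes of DNA replication fell by less. Of 48 listed genes, 40 had a probe and 36 were tested, and 27 fell, none rose and 34 were lower in all 4 pairs, with a median change of -0.61. When a pair was left out, 19 to 27 of them passed, 19 without PVG control. Among probes detected on all 8 arrays, 23 of the genes were tested and 20 fell. The deepest fall among the probes that passed was that of Rrm2, the small subunit of ribonucleotide reductase, with 895, 1581, 861 and 1355 at 24 h and 234, 454, 162 and 366 at 48 h. Both strains showed it with and without LPS, by -1.93, -1.80, -2.41 and -1.89 on the log2 scale, and the mean fall was 4.02-fold (change -2.01 ± 0.11, adjusted p = 2.99e-05).

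Subunits of the MCM helicase did not fall alike. Mcm6 had 757, 1183, 682 and 943 at 24 h and 305, 546, 177 and 414 at 48 h (change -1.39 ± 0.13, adjusted p = 0.000242), and Mcm2 had 344, 405, 275 and 318 at 24 h and 203, 226, 155 and 165 at 48 h (change -0.84 ± 0.08, adjusted p = 0.000278). The times did not overlap for either. Mcm3 and Mcm7 also fell, whereas Mcm4 and Mcm5 had changes of -0.17 and -0.22 and did not pass. Geminin (Gmnn), which keeps DNA from being copied again before division, changed by -1.12, -1.09, -1.25 and -1.25 in the 4 pairs, and the primase subunit Prim1 by -0.69, -0.96, -0.93 and -1.04. The 9 tested genes that did not pass included E2f1, the transcription factor of S-phase genes, with -0.31, and Ung, which removes uracil from DNA, with -0.13.

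Histone variants outside the replication list moved with it. H2az1, the histone H2A.Z gene, had 5368, 6822, 4454 and 5572 at 24 h and 3005, 3746, 2138 and 2661 at 48 h and changed by -0.96 ± 0.08 (adjusted p = 0.000199), and H2ax, which marks DNA breaks when phosphorylated, changed by -0.92 ± 0.10 (adjusted p = 0.000528). The times did not overlap for either gene, and the other 3 tested histone genes did not pass. Together the mitosis and replication lists gave 61 of the 214 named genes that fell, from 73 of their genes tested.

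Promoters of these genes are shown because the genes moved together and because elements bound by cell cycle regulators are known. Promoters of 300 bases (250 before and 50 from the start site on) were taken from RefSeq on GRCr8 and searched on both strands for the CHR element (TTTGAA or TTCGAA), the CCAAT box (CCAAT) and the E2F site (TTTCCCGC, TTTCGCGC, TTTGCCGC or TTTGGCGC). No word of one element holds a word of another, and E2F matches on opposite strands can overlap. Among the mitosis genes that fell, 26 of 34 had a promoter, of which 20 held a CHR element (76.9%) and 20 a CCAAT box (76.9%), while 2 held an E2F site (7.69%). Among the replication genes that fell, 23 of 27 had a promoter, of which 5 held a CHR element (21.7%), 14 a CCAAT box (60.9%) and 14 an E2F site (60.9%). Of all 27457 promoters, 19.5% held the CHR element, 37.7% the CCAAT box and 2.25% the E2F site, and of the 5745 of the genes tested 13% (CHR), 38.2% (CCAAT) and 4.16% (E2F). A match is a description of the letters and not of binding. Both genes of mitosis and both of replication printed here, with the matches in capitals and read 5′ to 3′ towards the gene, come from chr8:79981609-79981908, minus strand (Ccnb2), chr20:19265043-19265342, plus strand (Cdk1), chr13:42404303-42404602, minus strand (Mcm6) and chr4:122918045-122918344, minus strand (Mcm2).
Ccnb2: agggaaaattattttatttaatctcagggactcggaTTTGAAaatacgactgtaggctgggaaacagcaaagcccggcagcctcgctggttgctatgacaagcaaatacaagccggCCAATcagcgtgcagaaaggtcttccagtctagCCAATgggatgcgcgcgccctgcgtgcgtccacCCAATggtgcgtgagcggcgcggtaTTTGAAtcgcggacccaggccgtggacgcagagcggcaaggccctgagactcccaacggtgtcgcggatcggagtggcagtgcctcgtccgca
Cdk1: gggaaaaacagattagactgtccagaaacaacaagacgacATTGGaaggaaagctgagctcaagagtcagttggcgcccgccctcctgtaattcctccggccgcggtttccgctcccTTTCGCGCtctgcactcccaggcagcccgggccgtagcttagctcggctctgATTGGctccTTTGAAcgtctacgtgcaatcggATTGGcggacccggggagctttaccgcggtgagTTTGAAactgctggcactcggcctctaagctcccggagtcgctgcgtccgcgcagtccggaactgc
Mcm6: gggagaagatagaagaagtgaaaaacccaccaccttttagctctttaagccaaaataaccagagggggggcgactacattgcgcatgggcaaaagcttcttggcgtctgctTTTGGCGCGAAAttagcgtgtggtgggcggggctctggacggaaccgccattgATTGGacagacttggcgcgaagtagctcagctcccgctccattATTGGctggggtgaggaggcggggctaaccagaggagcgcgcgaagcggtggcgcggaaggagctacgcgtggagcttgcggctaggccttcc
Mcm2: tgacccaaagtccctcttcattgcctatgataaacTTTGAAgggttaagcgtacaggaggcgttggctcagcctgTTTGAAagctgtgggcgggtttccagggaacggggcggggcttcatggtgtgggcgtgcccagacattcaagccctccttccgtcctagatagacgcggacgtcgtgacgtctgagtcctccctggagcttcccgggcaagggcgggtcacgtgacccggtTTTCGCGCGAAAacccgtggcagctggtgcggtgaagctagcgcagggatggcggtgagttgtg

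Counted from the start site, the Ccnb2 promoter held CHR elements at positions -214 and -43 and CCAAT boxes at -134, -101 and -68. In Cdk1, CHR elements lay at -72 and -16, an E2F site at -133, and 3 CCAAT boxes were read on the opposite strand (ATTGG), the nearest at -49. The Mcm6 and Mcm2 promoters each held a pair of overlapping E2F matches on opposite strands, which began at -139 and -14. Mcm6 also held 2 CCAAT boxes, and Mcm2 had no CCAAT box and 2 CHR matches far from its start, at -215 and -175. Of all genes with a probe that fell, 180 had a promoter, and 66 held a CHR element (36.7%), 99 a CCAAT box (55%) and 25 an E2F site (13.9%). Of genes with a probe that rose, 76 had a promoter, and 8 held a CHR element (10.5%), 23 a CCAAT box (30.3%) and 1 an E2F site (1.32%).

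Genes that make ribosomes and drive growth had smaller falls. Of 25 tested genes of ribosome biogenesis and MYC targets, 5 fell and none rose, 13 were lower in all 4 pairs, and the median change was -0.22. Over all probes tested, 2.76% fell and 12.4% were lower in all 4 pairs. Ran, the GTPase of nuclear transport, had 4474, 5252, 3289 and 4268 at 24 h and 3197, 3635, 2469.6 and 3103 at 48 h (change -0.47 ± 0.08, adjusted p = 0.00874), and the call was lost without PVG LPS (adjusted p = 0.0514). Its partner Ranbp1 changed by -0.60 (adjusted p = 0.0312, and 0.08 without LEW control, 0.131 without PVG control and 0.075 without PVG LPS). The polyamine enzyme Odc1 changed by -0.40 (adjusted p = 0.0307, and 0.124 without LEW control, 0.119 without PVG control and 0.0579 without PVG LPS), the nucleolar methyltransferase Fbl by -0.36 (adjusted p = 0.0392, and 0.0837 to 0.155 whichever pair was left out), and the lactate dehydrogenase subunit Ldha by -0.43 (adjusted p = 0.0312, and 0.0965 without LEW control, 0.124 without PVG control and 0.051 without PVG LPS). The 5 calls became 4 without LEW LPS, 1 without LEW control, 1 without PVG control, none without PVG LPS and none after background correction with limma's nec function, which estimates background from the detection p-values. Ldha was also the 1 of 28 tested genes of glycolysis and hypoxia that passed. Myc itself had a change of -0.25 and did not pass (adjusted p = 0.182). Of 52 tested ribosomal protein genes, Rpl5 fell by 1.45-fold (change -0.54 ± 0.09, adjusted p = 0.00923, and 0.0655 without PVG control), and the list's median change was 0.03. None of 26 tested proteasome genes and none of 34 of the respiratory chain and citrate cycle passed, with medians of -0.12 and -0.09.

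Some of the deepest falls lay outside cell division. Gldn, which encodes gliomedin, a matrix protein known from nodes of Ranvier, had 634, 986, 494 and 682 at 24 h and 163, 327, 129.8 and 249 at 48 h. It fell 3.33-fold in limma (change -1.73 ± 0.10, adjusted p = 2.99e-05) and at least 2-fold in each pair. Gsta5, a glutathione transferase whose probe may also bind close copies of the gene, had 317, 189, 179 and 133 at 24 h and 78.8, 86.7, 64.2 and 77.5 at 48 h. It was detected on all 4 arrays at 24 h and on none at 48 h, so that it entered the test through the 24 h arrays alone, and its signals at 48 h were at least 2.27-fold lower, a bound set by the lowest detected signal of each 48 h array. Krt7, a keratin that also marks mesothelium, changed by -0.90, -0.91, -1.28 and -0.75 in the pairs (adjusted p = 0.000442). Cryab, a small heat shock protein, had 13719, 31604, 10377 and 27109.7 at 24 h and 5704, 18993, 2551 and 20659 at 48 h (change -1.10 ± 0.21, adjusted p = 0.0159), with the larger changes in LEW, and it was the 1 of 16 tested heat shock chaperones that passed. Without PVG control its adjusted p was 0.0859.

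Single genes of other lists fell too, beside a share of 2.76% lower over all probes tested. Follistatin (Fst), which binds activin, had 443, 979.7, 529.6 and 1047 at 24 h and 228, 619, 300.4 and 761 at 48 h (change -0.72 ± 0.10, adjusted p = 0.00221), and Id1, a target of BMP signals, changed by -0.55 ± 0.09 (adjusted p = 0.00612). Both were lower at 48 h in every pair, and they were the only 2 of 24 tested genes of the TGF-beta list that passed. Of the annexins, Anxa3 changed by -0.51 ± 0.08 and Anxa2 by -0.71 ± 0.12, and Anxa2 lost its call without PVG control or PVG LPS (adjusted p = 0.0837 and 0.0583). The growth factor Pdgfa changed by -0.41, -0.39, -0.41 and -0.46 in the pairs (adjusted p = 0.0154, and 0.0631 without LEW control, 0.0563 without PVG control and 0.0915 without PVG LPS). Its fall was even, whereas that of Pgf, a relative of VEGF, was larger in LEW, with changes of -1.03, -0.20, -0.83 and -0.22 (adjusted p = 0.0492, and 0.0528 to 0.174 whichever pair was left out). The cytokine Il33 changed by -0.53 (adjusted p = 0.0194, and 0.115 without PVG control and 0.0512 without PVG LPS), and osteopontin (Spp1) by -0.77 (adjusted p = 0.0243, and 0.0803 without LEW control and 0.0803 without PVG LPS). RT1-N3, a class Ib MHC gene with close relatives that the probe could also bind, changed by -0.53 ± 0.09 (adjusted p = 0.0077), and was the 1 of 18 tested genes of antigen presentation that passed.

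**Figure D3:**
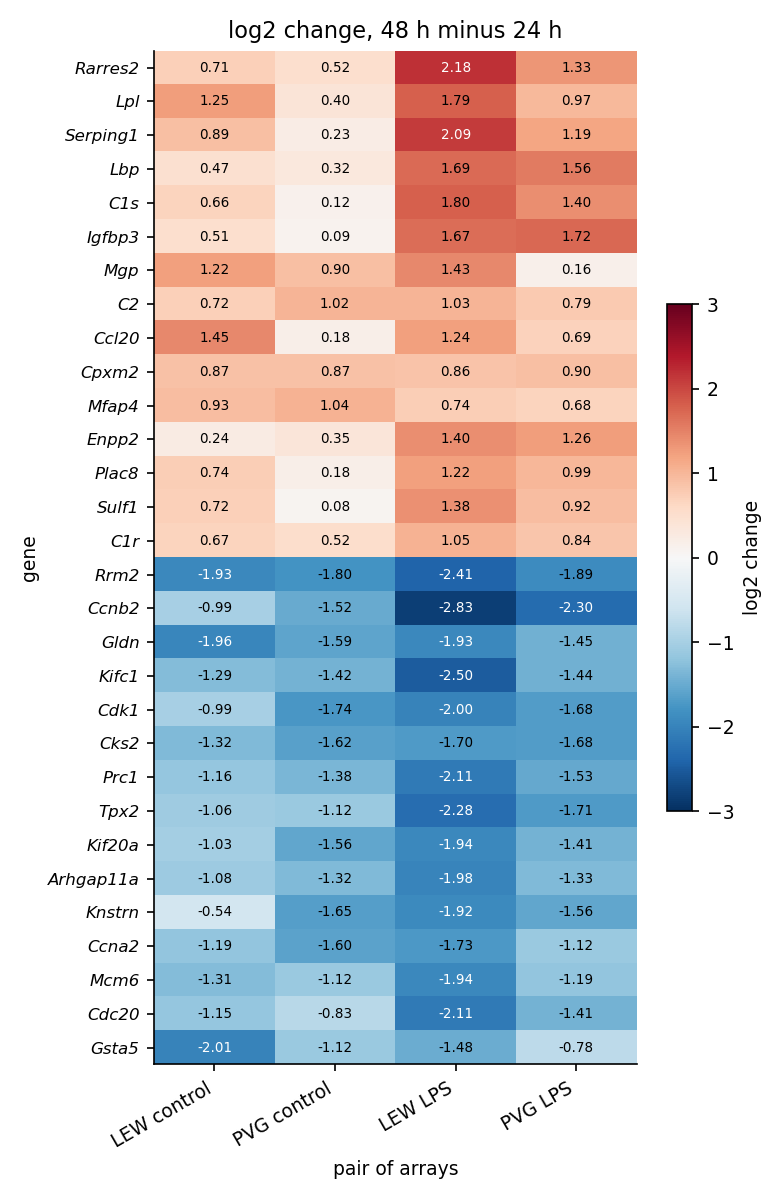
Log2 change, 48 h minus 24 h, in each of the 4 pairs (columns) for the 15 genes with the largest rises and the 15 with the largest falls among named genes that passed and moved the same way in all pairs (rows). The falls are deep in every column (-0.54 to -2.83), while the rise of Igfbp3 is near 0 in PVG control and over 1.5 in both LPS pairs.

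Among the genes that rose, Cpxm2, C2 and Mfap4 did so by a like amount of scaled signal in every pair. Cpxm2, a secreted protein of the carboxypeptidase family, had 657, 109.6, 595 and 105 at 24 h and 1201, 201, 1081 and 196 at 48 h, and its changes were 0.87, 0.87, 0.86 and 0.90. The strains lay far apart at both times, but each array at 48 h was higher than its partner (change 0.88 ± 0.08, adjusted p = 0.000201). The PVG signals of Cpxm2 lay nearer the lowest detected signals of their arrays (75.2 to 87.5). Background can therefore understate its changes more in PVG than in LEW. Mfap4, a microfibril protein that binds elastin, had 296, 352, 289 and 333 at 24 h and 564, 722, 483 and 533 at 48 h (change 0.85 ± 0.09, adjusted p = 0.000528), with no overlap between the times. Lipoprotein lipase (Lpl), which frees fatty acids from lipoproteins, had 1215, 2555, 1522 and 1964 at 24 h and 2895, 3362, 5271 and 3850.5 at 48 h (change 1.10 ± 0.18, adjusted p = 0.00658). Its times did not overlap either, and PVG control changed least, by 0.40.

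Several complement genes rose with time. Of 34 listed genes of complement and the acute phase, 24 had a probe and 16 were tested, and 6 rose, none fell and 8 were higher in all 4 pairs, with a median change of 0.45. Over all probes tested, 1.38% rose and 13.6% were higher in all 4 pairs. The list's median was 0.18 in LEW control, 0.19 in PVG control, 0.95 in LEW LPS and 0.25 in PVG LPS, and 0.30 over the pairs without LEW LPS. LEW LPS was also the pair with the most probes higher by 1.5-fold, 337 against 72 to 115 in the others. Leaving out the PVG LPS pair left 3 of the 6 calls, and without scaling 2 genes passed. C2, a protease of the classical and lectin pathways, had 3077, 827, 3522 and 1160.1 at 24 h and 5073, 1679.6, 7171 and 2007 at 48 h. The LEW arrays lay above the PVG arrays at both times, and C2 changed by 0.72, 1.02, 1.03 and 0.79 in the pairs (mean 0.89 ± 0.09, adjusted p = 0.000369). The C1 protease gene C1r changed by 0.67, 0.52, 1.05 and 0.84 in the pairs (adjusted p = 0.00178), and its partner C1s by 0.66, 0.13, 1.80 and 1.40 (adjusted p = 0.0312, and 0.128 without PVG LPS).

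The inhibitor of the C1 proteases rose too. Serping1 had 228, 236, 356 and 379.6 at 24 h and 423, 276, 1520.3 and 866 at 48 h (change 1.10 ± 0.22, adjusted p = 0.0239). The times overlapped, since PVG control at 48 h lay below both LPS arrays at 24 h, and the call was lost without PVG LPS (adjusted p = 0.0852). Lbp, which hands LPS to CD14, changed by 1.01 ± 0.21 (adjusted p = 0.026, and 0.109 without PVG LPS). For C1s, Serping1 and Lbp the rise was larger in the cultures with LPS, as described below. C4b changed by 0.52 ± 0.11 and was detected on 2 of 4 arrays at 24 h and on 4 at 48 h (adjusted p = 0.0304, and 0.106 without LEW control, 0.0837 without PVG control and 0.0505 without LEW LPS).

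Lysosomal genes rose by less, and more of them moved one way than passed. Of all probes tested, 1.38% passed as higher and 13.6% were higher in all 4 pairs. Of 34 tested genes of lysosomes and autophagy, 7 rose and none fell, 18 were higher in all 4 pairs and none was lower in all 4, with a median change of 0.26. The number that passed was 1 without scaling, 3 after background correction with nec, 4 without LEW control or LEW LPS, 5 without PVG control and 2 without PVG LPS. Prosaposin (Psap), the precursor of activators of lipid breakdown, had 393, 341, 507 and 312 at 24 h and 652, 495, 921 and 507 at 48 h (change 0.71 ± 0.09, adjusted p = 0.00114). Cathepsin H (Ctsh) had 535, 358, 727 and 448 at 24 h and 834, 467, 1590.3 and 765 at 48 h (change 0.73 ± 0.12, adjusted p = 0.00595). Each 48 h value of these 2 genes was above its partner, though the times overlapped between strains, and neither lost its call when a pair was left out.

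Other lysosomal genes passed with less margin. Lamp2, a membrane protein of the lysosome, changed by 0.49, 0.39, 1.18 and 0.44 in the pairs (adjusted p = 0.0239, and 0.0837 without PVG control and 0.0528 without PVG LPS), with LEW LPS apart from the rest. The mannosidase gene Man2b1 changed by 0.40 ± 0.09 (adjusted p = 0.031, and 0.0559 to 0.14 whichever pair was left out), and progranulin (Grn) by 0.37 ± 0.08 (adjusted p = 0.0315, and 0.0685 to 0.151 whichever pair was left out). Igf2r, the receptor that carries mannose-6-phosphate tagged enzymes to lysosomes, belonged to the IGF list and had 4958, 5695, 5559 and 4498 at 24 h and 7093, 7009, 7468 and 5971 at 48 h (change 0.41 ± 0.08, adjusted p = 0.0212, and 0.0992 without LEW control and 0.0961 without PVG LPS).

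**Figure D4:**
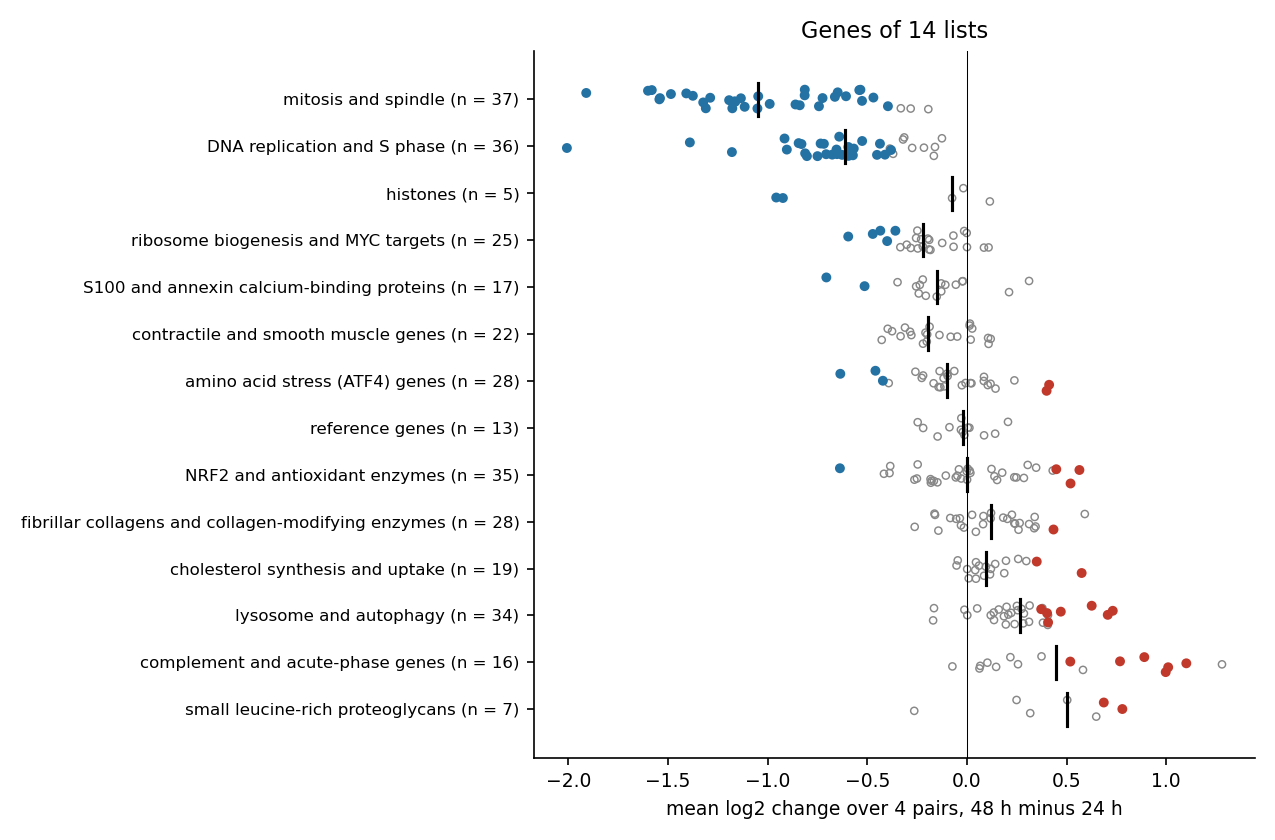
Mean log2 change over the 4 pairs (x axis) for every tested gene of 14 lists (rows, with the number tested), filled where the gene passed (red higher, blue lower) and open where it did not; black bars are medians. The mitosis and replication genes lie to the left of 0, with medians of -1.05 and -0.61, and the reference genes lie around 0.

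Matrix and secreted genes rose singly rather than as whole lists, beside a share of 1.38% higher over all probes tested. Matrix Gla protein (Mgp), an inhibitor of calcification, had 570.4, 2375, 2072 and 4744 at 24 h and 1329.9, 4438, 5584 and 5292 at 48 h (change 0.93 ± 0.17, adjusted p = 0.014), and the PVG LPS pair changed by only 0.16. Without PVG control its adjusted p was 0.114. Of 7 tested small leucine-rich proteoglycans, decorin (Dcn) and asporin (Aspn) passed, with a list median of 0.50, and 1 of the 7 was higher in all 4 pairs. The median was 0.28 without LEW LPS, and the pair medians were 0.48 in LEW control, -0.03 in PVG control, 1.02 in LEW LPS and 0.37 in PVG LPS. The 2 calls became none without LEW control and 1 without LEW LPS or without PVG LPS. Decorin, which binds collagen fibrils, had 5396, 377, 8283 and 769 at 24 h and 8774, 373, 19628 and 1755 at 48 h. It was the called probe that did not move the same way in all pairs, since PVG control was at -0.02 (change 0.78 ± 0.18, adjusted p = 0.036, and 0.0733 without LEW control and 0.152 without PVG LPS). Asporin, also a collagen-binding protein, changed by 1.22, 0.43, 1.02 and 0.09 in the pairs (adjusted p = 0.0424, and 0.138 without LEW control, 0.136 without PVG control and 0.0509 without LEW LPS). Of 28 tested fibrillar collagen genes and collagen-modifying enzymes, only the lysyl hydroxylase Plod1 passed (change 0.43 ± 0.10, adjusted p = 0.0397, and 0.0947 without LEW control, 0.0842 without LEW LPS and 0.17 without PVG LPS), and none of 15 tested matrix-degrading enzymes and inhibitors did.

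Rarres2, the gene of the chemoattractant chemerin, had the largest mean rise among the genes that passed, with 1272, 323, 1250.5 and 286 at 24 h and 2079.6, 462, 5683 and 720.4 at 48 h (change 1.19 ± 0.22, adjusted p = 0.0143, and 0.0578 without PVG LPS). The chemokine Ccl20 had 345, 92.3, 4381 and 2186 at 24 h and 942, 105, 10317 and 3529 at 48 h (change 0.89 ± 0.17, adjusted p = 0.0194, and 0.0555 without LEW control), and was the 1 of 13 tested chemokines that passed. Its LPS arrays were far above the controls at both times, and PVG control stayed low. Sulf1, which trims heparan sulfate, changed by 0.73, 0.08, 1.38 and 0.92 in the pairs (adjusted p = 0.0289, and 0.0614 without LEW control and 0.114 without PVG LPS), Plac8 by 0.74, 0.19, 1.22 and 0.99 (adjusted p = 0.014, and 0.07 without PVG LPS), and Enpp2, the gene of autotaxin, by 0.24, 0.36, 1.40 and 1.26 (adjusted p = 0.0339, and 0.09 without PVG control and 0.143 without PVG LPS). In these 3 genes the LPS pairs changed the most. The receptor gene Pdgfra, a marker of fibroblast-like cells, changed by 0.71 ± 0.12 (adjusted p = 0.0104, and 0.0514 without PVG LPS), and 3 of 21 tested adhesion genes rose. These were Cd47, which restrains phagocytes, with 0.64 (adjusted p = 0.0077, and 0.0746 without PVG control), syndecan 2 (Sdc2), with 0.57 (adjusted p = 0.0211, and 0.0635 without PVG control and 0.0884 without PVG LPS), and the adiponectin-binding cadherin Cdh13, with 0.48 (adjusted p = 0.0239, and 0.106 without LEW control and 0.119 without PVG control). Single genes also rose in the lists of growth factors (midkine, Mdk, 0.61, adjusted p = 0.031, and 0.0744 without LEW control, 0.09 without PVG control and 0.0518 without PVG LPS), Wnt signalling (Ccn4, 0.50, adjusted p = 0.0284, and 0.114 without LEW control and 0.126 without PVG control) and basement membrane (the laminin gene Lamb2, 0.46, adjusted p = 0.0346, and 0.0848 without LEW control, 0.145 without PVG control and 0.17 without PVG LPS).

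Metabolic and stress genes split in both directions. Of 28 tested genes of the amino acid stress response driven by ATF4, 3 fell and 2 rose. The serine synthesis enzyme Phgdh had 778, 2303, 742 and 1789 at 24 h and 607, 1679, 309.6 and 1294 at 48 h (change -0.64 ± 0.14, adjusted p = 0.031, and 0.119 without PVG control and 0.0715 without PVG LPS), with the deepest fall in LEW LPS. The tRNA synthetase genes Gars1 and Yars1 changed by -0.46 (adjusted p = 0.0312, and 0.145 without PVG control, 0.055 without LEW LPS and 0.0748 without PVG LPS) and -0.42 (adjusted p = 0.0308, and 0.119 without PVG control, 0.0692 without LEW LPS and 0.1 without PVG LPS). The 2 that rose were the amino acid transporter Slc38a2, by 0.41 (adjusted p = 0.0265, and 0.0574 without LEW control, 0.105 without PVG control and 0.0858 without PVG LPS), and the stress protein Nupr1, by 0.40 (adjusted p = 0.0392, and 0.0598 to 0.144 whichever pair was left out). Among 35 tested NRF2 targets and antioxidant enzymes, the quinone reductase Nqo1 fell (change -0.64 ± 0.11, adjusted p = 0.0101, and 0.0578 without PVG LPS). The glutathione transferase Gstm2, which has close paralogs, rose by 0.52 (adjusted p = 0.00809, and 0.0512 without PVG LPS), Gstt1 of the same superfamily by 0.45 (adjusted p = 0.0223, and 0.102 without PVG control and 0.121 without PVG LPS), and the secreted superoxide dismutase Sod3 by 0.56 (adjusted p = 0.0188, and 0.112 without PVG control and 0.0989 without PVG LPS).

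Some lipid genes passed, beside shares of 1.38% higher and 2.76% lower over all probes tested. Of 19 tested genes of the sterol list, Tm7sf2, a sterol reductase, rose by 0.58 (adjusted p = 0.0128, and 0.0563 without LEW control, 0.0907 without PVG control and 0.075 without PVG LPS), and the demethylase Cyp51 by 0.35 (adjusted p = 0.0429, and 0.0683 to 0.194 whichever pair was left out). Of 9 in the fatty acid list, Acss2, which makes acetyl-CoA from acetate, rose by 0.41 (adjusted p = 0.0309, and 0.134 without LEW control, 0.13 without PVG control and 0.114 without PVG LPS). Of 12 in the adipogenesis list, the transcription factor Klf15 rose beside Lpl, by 0.46 (adjusted p = 0.0489, and 0.0729 to 0.132 whichever pair was left out). The ER chaperone Hsp90b1 changed by -0.61 (adjusted p = 0.0221, and 0.0815 without LEW control and 0.0989 without PVG LPS), as the 1 of 22 tested genes of the unfolded protein response that passed.

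No gene passed in the lists of p53 targets and growth arrest (22 tested), immediate early genes (23), glucocorticoid-responsive genes (13), clock genes (9), interferon-stimulated genes (15), NF-kB subunits and feedback inhibitors (20), fatty acid oxidation (17), contractile genes (22), YAP and SRF targets (13) and HOX genes (15). Their medians lay between -0.19 for contractile genes and 0.15 for glucocorticoid-responsive genes. At the shares over all probes tested, 1.38% higher and 2.76% lower, lists of this size can hold no call. The contractile median was -0.04 without LEW LPS and -0.12 without LEW control, with pair medians of -0.22 in LEW control, 0.00 in PVG control, -0.48 in LEW LPS and 0.12 in PVG LPS. The largest values among them were those of Txnip (-1.43, adjusted p = 0.146), Klf9 (0.57, adjusted p = 0.102) and Hsd11b1 (0.54, adjusted p = 0.18). None of 13 tested reference genes passed, with changes from -0.25 (Ywhaz) to 0.21 (B2m).

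The labelled cell type was checked against markers. Among 19 MSC and fibroblast markers on the chip, 16 lay above background throughout, with summed signals of 123380 to 135640 at 24 h and 119380 to 138970 at 48 h. Of 21 leukocyte markers, 14 were undetected on all arrays, among them Ptprc (CD45) and Cd3e, while 2, Cd14 and Fcer1g, were detected on all 8. The 21 summed to 1593 to 1883 at 24 h and 1671 to 1915 at 48 h. Such sums include the array background of every probe, so they are not levels of these cells. Of 16 endothelial markers, 7 were undetected on all arrays, Cdh5 and Vwf among them, and 3 were detected on all 8, with sums of 1199 to 1485 and 1212 to 1437. The mature adipocyte markers summed to 2228 to 3428 at 24 h and 3883 to 6277 at 48 h, of which Lpl rose, while Adipoq and Lep were undetected on all 8 arrays. Of 9 mesothelial markers, 2 were undetected on all arrays, Cdh1 among them, and 2 were detected on all 8. Krt7 fell, and the sum was 1102 to 2086 at 24 h and 1070 to 1702 at 48 h. The markers that passed were Pdgfra, Lpl and Krt7, as given above, and Nes, listed for Schwann cells and neural cells, with -0.43 (adjusted p = 0.0428, and 0.0647 without LEW control, 0.163 without PVG control and 0.179 without PVG LPS). Of 9 Schwann and neural markers, 3 were undetected on all arrays, Sox10 and Gfap among them, and 2 were detected on all 8. The part of these cells in the changes was not tested.

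Whether LPS altered the change with time was tested on the 4 differences of the pairs, with strain as the other term. The 24 called probes (0.258% of those tested) included genes of the acute phase and of complement, and 23 of them had the higher change with LPS, while 7 had also passed for time over all pairs. Lipocalin 2 (Lcn2), which binds bacterial siderophores, had 120.3, 66.2, 3427 and 897 at 24 h and 106, 81.2, 27792 and 3545 at 48 h. It rose steeply in both LPS pairs and had changes of -0.18 and 0.30 in the controls, a difference of 2.44 ± 0.27 (adjusted p = 0.00991). The PVG control signals were not above background at either time. Haptoglobin (Hp), another acute-phase gene, had 72.8, 65.8, 147 and 84 at 24 h and 69.6, 65.8, 312 and 209 at 48 h. It was detected on the LPS arrays alone and entered the test through them, so its LPS minus control difference has no measured control side.

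Several genes of the overall rise differed by LPS. The differences were 1.39 ± 0.16 for Igfbp3, which binds IGF, 1.23 ± 0.15 for Lbp, 1.21 ± 0.15 for C1s, 1.15 ± 0.18 for Rarres2, 1.08 ± 0.15 for Serping1 and 1.03 ± 0.15 for Enpp2 (adjusted p = 0.00991, 0.00991, 0.00991, 0.0232, 0.0195 and 0.0202). In each of these the control pairs were also higher at 48 h. For Igfbp3 the signals were 935, 216, 1075 and 532 at 24 h and 1328, 230.3, 3412 and 1752 at 48 h, with little change in PVG control. Enpp2 was not above background on the control arrays at 24 h. The eosinophil chemokine Ccl11 had 187, 78.2, 242 and 136 at 24 h and 168, 95.2, 456 and 422 at 48 h (difference 1.21 ± 0.16, adjusted p = 0.0104). The 1 probe with the lower change under LPS was that of Ccnb2, which fell further with LPS, a difference of -1.31 ± 0.22 (adjusted p = 0.0334). C2, Cpxm2 and Rrm2 had differences of 0.04, 0.01 and -0.28 and did not pass.

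Strain altered the change of 16 probes (0.172%), 6 higher in PVG and 10 lower. Txnip, a thioredoxin-binding protein that responds to glucose, had 2901, 2858, 2209 and 2607 at 24 h and 982, 2581, 149 and 2384 at 48 h. The LEW arrays fell, by far the most with LPS, while the PVG pairs had changes of -0.15 and -0.13, a difference of 2.59 ± 0.38 for PVG minus LEW (adjusted p = 0.0253). The actin genes Acta1 and Actg2 moved in opposite directions in the strains. Acta1, skeletal muscle actin, had 1729, 5609, 709 and 3026 at 24 h and 747, 6016, 274 and 5612 at 48 h (difference 1.79 ± 0.21, adjusted p = 0.0104), and Actg2, smooth muscle actin, had 324, 8683, 222 and 6025 at 24 h and 189.8, 12688, 97.5 and 7392 at 48 h (difference 1.40 ± 0.15, adjusted p = 0.0104). Both LEW pairs were lower at 48 h and both PVG pairs higher.

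Ccn1, a matrix protein induced by YAP, had 2933, 1924, 2382 and 2603 at 24 h and 2161, 3574, 1767 and 4424 at 48 h (difference 1.27 ± 0.15, adjusted p = 0.0104), also lower in both LEW pairs and higher in both PVG pairs. Ppp1r14a, an inhibitor of myosin phosphatase, differed by 1.15 ± 0.16 in the same sense, and the angiotensin receptor Agtr1a, Hsd11b1, Cd302 and Wfdc18 by -1.31 ± 0.18, -1.01 ± 0.15, -1.04 ± 0.15 and -1.30 ± 0.19 in the other, Wfdc18 with PVG control not above background at either time. These tests leave 1 residual degree of freedom and rest on the spread borrowed from all probes. With strain left out of the LPS test, or LPS out of the strain test, no probe passed, although 552 and 855 had an unadjusted p under 0.05, and after nec or with probes detected on all 8 arrays no probe passed in either test.

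**Figure D5:**
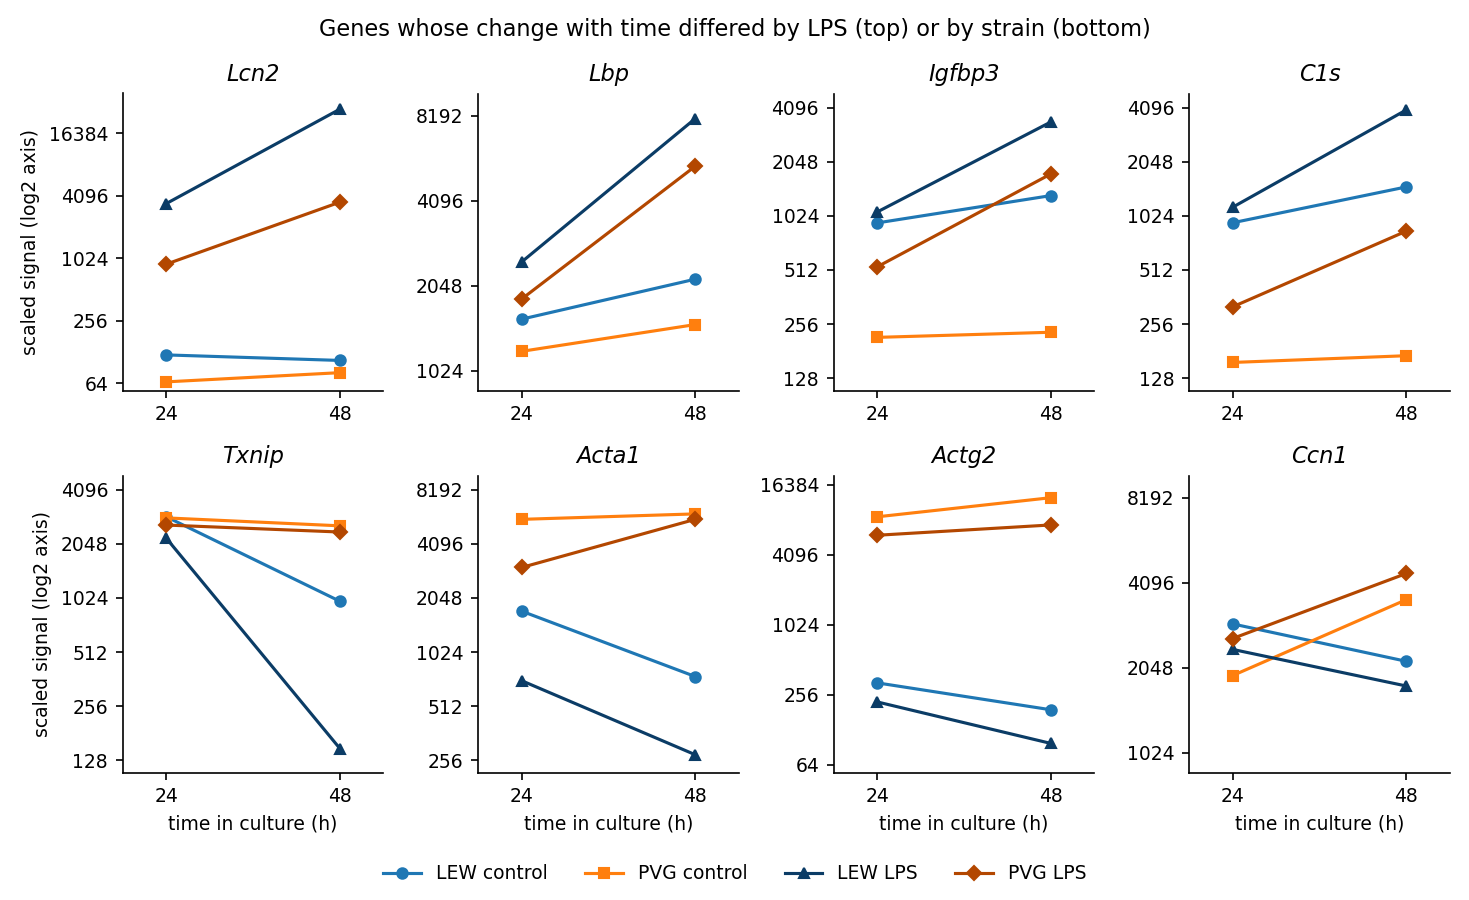
Scaled signals (log2 axis) at 24 h and 48 h (x axis) of 4 genes whose change with time differed by LPS (top) and 4 by strain (bottom), 1 line for each pair of arrays. In the top row the LPS lines are the steeper, and in the bottom row the LEW lines fall while the PVG lines stay near level or rise.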

How the data were processed

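The deposited table gave, per the file headers, the signal intensity of each probe, summarised by the authors without background subtraction or scaling between arrays, with a detection p-value that the scanner software took from the negative controls of each array. A second deposited table of intensity values, quantile-normalized by the authors, served as an alternative. Intensities were scaled to the 75th percentile, following the methods. Log2 differences were fitted with limma 3.58.1 in R 4.3.3 with the pair as a block, on 9285 probes detected on at least 4 arrays, with Benjamini-Hochberg adjustment. A probe had 3 residual degrees of freedom, and 10.18 in total after moderation, which borrows spread from all probes. The control and the LPS pair of a strain are cultures of the same 3 rats. The changes of the 4 pairs, within and between strains, correlated across probes at 0.22 to 0.47. Differences by LPS and by strain were fitted on the 4 pair changes. The number of arrays limits the precision.

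Symbols came from the platform annotation, where 13793 probes had 1 symbol and 8730 none, and 13752 were updated through Entrez IDs. Each gene was given by its brightest probe. Named were the 15 largest rises and falls that passed in all 4 pairs, up to 5 passing members of each gene list by p-value (up to 2 of the largest changes where none passed), and the 8 genes with the smallest p in each test of a difference. Other genes were picked later, with their values in view. The comparison, its genes and the gene lists were chosen with earlier results of these data known.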

Additional observations from a re-analysis of the deposited data

Results flagged for a closer look

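For several genes the change with time differed between cultures with and without LPS by the test of the difference itself. The LPS minus control difference in log2 change was 2.44 for Lcn2, 1.39 for Igfbp3, 1.23 for Lbp, 1.23 for Hp, 1.21 for C1s, 1.21 for Ccl11, 1.21 for Wfdc18, 1.15 for Rarres2, 1.08 for Serping1, 1.08 for Cd302, 1.03 for Enpp2 and -1.31 for Ccnb2 (limma adjusted p between 0.00991 and 0.0334). Hp was not above background on any control array, nor were Lcn2 and Wfdc18 in PVG control at either time, so these sizes rest in part on signals at background.

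The change with time differed between strains in the same way for 9 named genes. The PVG minus LEW difference was 2.59 for Txnip, 1.79 for Acta1, 1.40 for Actg2, 1.27 for Ccn1, 1.15 for Ppp1r14a, -1.31 for Agtr1a, -1.30 for Wfdc18, -1.04 for Cd302 and -1.01 for Hsd11b1 (limma adjusted p between 0.0104 and 0.0253). Cd302 and Wfdc18 thus differed by LPS and by strain, and both had their largest change in LEW LPS.

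In 7 of the 134 named genes, 1 of the 4 pairs stood far from the other 3. Chance gives this in about 1 of 20 groups of equal spread, which is about the share found. The pairs were not of equal spread, and most of the cases were LEW LPS. The standard deviation of the changes over all tested probes was 0.338 in LEW LPS against 0.250 to 0.286 in the other pairs. Whether chance accounts for the cases was not tested. LEW LPS stood apart with changes of -2.50 for Kifc1, -1.59 for Kif11, -1.45 for Spag5, -1.26 for Phgdh, 1.18 for Lamp2 and -0.0903 for Hadha, a subunit of the mitochondrial trifunctional protein. PVG control stood apart with -0.512 for Ankrd1, a target of YAP.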

How the results depend on the processing

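None of the 88 named genes that passed changed direction under any alternative in which it was tested. Of these, 70 kept their call after nec, 84 after normexp, 69 after quantile normalization, 48 without scaling, 73 of 78 among probes detected on all 8 arrays, 4 without the pair block, none in the 2-way analysis of variance, 1 without moderation and 45 to 76 when a pair was left out. The 384 probes became 721 without a detection filter (284 higher, 437 lower), 22 without the pair block (0 higher, 22 lower), 1 in the 2-way analysis of variance (0 higher, 1 lower), 3 without moderation (2 higher, 1 lower) and 183 to 396 when a pair was left out (39 to 122 higher, 137 to 274 lower). At an unadjusted p under 0.05, 726 probes passed without the block, 808 in the 2-way analysis of variance and 1271 without moderation. The 128 higher probes became 193 when scaled to the median of probes detected on all arrays (41.8% of calls) and 10 without scaling (3.18%).

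The 24 probes that differed by LPS became 0 after nec, 14 after normexp, 94 after quantile normalization, 109 with the median of detected probes, 777 without scaling, 0 among probes detected on all 8 arrays, 85 on at least 1 array, 311 without a filter, 36 in the authors' table and 0 with strain left out. The 16 by strain became 0 (nec), 4 (normexp), 167 (quantile), 189 (median of detected probes), 85 (the authors' table), 29 (floor of 64), 0 (all 8 arrays), 100 (at least 1 array), 431 (no filter) and 0 with LPS left out. The cause was not tested. At 2-fold in place of 1.5-fold in all pairs, the 3 higher and 62 lower probes became 0 and 16. Dim probes limit the sizes, since background correction with nec moved the mitosis median from -1.05 to -1.53.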
